A study of Mus musculus with 96 samples.

Results

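The nucleus accumbens (NAc), the ventral part of the striatum, was compared with the prefrontal cortex (PFC) of the same unstressed mice across all measured genes. The libraries were taken by their labels alone: each one labelled as a control, 24 from NAc and 24 from PFC, which is 48 of the 96 libraries of the series. The 2 libraries of an animal carry the same number and the same animal identifier, so every difference below is a difference within 24 animals. The mice come from a model that separates sex chromosomes from gonads. In it the testis-determining gene Sry is absent from the Y chromosome (written Y-) and is supplied, or not, as a transgene. There were 5 XX mice and 7 XY- mice, which have ovaries, and 6 XXSry mice and 6 XY-Sry mice, which have testes, and each genotype stands in both regions with the same animals. The other 24 mice of the series went through subchronic variable stress, 3 restraint sessions of 1 hour on alternating days over 6 days, and are used here only as separate animals in which the same region difference could be measured again. The labels used here give neither age nor background strain.

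Each library is polyadenylated RNA of a tissue punch. In such bulk samples fewer cells of a type and less RNA per cell cannot be told apart, and a punch can hold some neighbouring tissue. The regions were deposited as separate tables, and whether their libraries were made side by side is not given in the sources used here, so region and handling by region cannot be told apart.

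Most neurons of the NAc are GABAergic spiny projection neurons. They receive dopamine through Drd1 receptors, which raise cyclic AMP (cAMP), or Drd2 receptors, which lower it, and cAMP is made by adenylyl cyclases, acts through protein kinase A and is removed by phosphodiesterases. The PFC is a layered cortex in which most neurons are glutamatergic pyramidal cells and the rest are GABAergic interneurons. These signalling pathways are built from gene families whose members are used to different degrees by different neurons, and the results below follow those families.

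Depth was high in both regions. Total counts per library ran from 65.0 M to 106.1 M in NAc (median 73.8 M) and from 67.6 M to 104.4 M in PFC (median 82.9 M). All of these totals exceeded the 45 M reads stated per library, and how reads were counted is not stated. Levels are given as CPM, a gene's counts relative to the total of its library, on library sizes scaled by the TMM method, and levels of different genes are compared only per kilobase of exon (RPKM). A fold change is log2 of NAc over PFC, so a value of 1 is 2-fold higher in NAc and a negative value is lower in NAc. Genes were tested with edgeR's quasi-likelihood test with the animal as a block, and a gene is called where the Benjamini-Hochberg adjusted p over all tested genes was below 0.05. Adjusted p-values below are from that test.

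The region labels matched the marker genes. All 13 markers of striatal projection neurons were called higher in NAc, with a median log2 fold change of 4.79, and all 10 markers of cortical excitatory neurons were called lower in NAc, with a median of -2.51. Drd1, the dopamine receptor of one class of spiny neuron, had 188, 246 and 334 CPM in NAc and 7.03, 8.58 and 11.4 CPM in PFC, as the lowest, median and highest of the 24 libraries of each region. Slc17a7, the vesicular glutamate transporter of cortical pyramidal cells, had 21.7, 321 and 514 CPM in NAc and 1325, 1499.6 and 1618 CPM in PFC. Neither pair of ranges overlapped, but Slc17a7 was far from absent in NAc and varied there more than in PFC, a point taken up below.

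Beyond these markers the regions differed in most of their measured genes, mostly by a small amount. Of 19918 genes, 18635 had enough counts to be tested, and 15509 of them (83.2%) were called, 7866 (42.2%) higher and 7643 (41%) lower in NAc. The typical difference was small: the median absolute log2 fold change over all tested genes was 0.39, the median standard error (SE) 0.0448, and 58.6% of the called genes differed by less than 1.5-fold. Called genes at least 2-fold apart numbered 1707 higher (9.16%) and 1665 lower (8.93%) in NAc, at least 4-fold apart 669 and 494, and at least 8-fold apart 335 and 175. In 4661 genes (25%), 2196 higher and 2465 lower in NAc, the ranges of the 24 NAc and 24 PFC libraries did not overlap. The even split of calls depends on the scaling: with plain library totals 9692 genes were higher and 6012 lower in NAc, the 2-fold counts were 2039 and 1351, and the median log2 fold change of all genes was 0.15 in place of 0.01. A list median smaller than that shift is not read as a direction. Since most genes were called, near-equal counts of higher and lower genes in a list do not set it apart from all genes, and such counts only introduce the members.

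The strongest differences among well expressed genes, leaving out the neuron markers above, include genes of signalling, synapses and the cytoskeleton. Syndig1l (chr12:84677277-84698831, minus strand, GRCm38), a relative of a synapse differentiation protein, had the highest log2 fold change of them, with 52.99, 79.05 and 132 CPM in NAc and 0.663, 1.30 and 4.15 CPM in PFC; a log2 fold change of 5.77 (SE 0.154), adjusted p = 1.83e-21. Its lowest NAc library was still above every PFC library. At the other end, Cpne9 (chr6:113282307-113305627, plus strand, GRCm38), a calcium-dependent membrane-binding copine, had 1.21, 2.80 and 6.69 CPM in NAc and 58.2, 65.7 and 82.9 CPM in PFC; a log2 fold change of -4.44 (SE 0.160), adjusted p = 1.28e-18. Every NAc library was below every PFC library. Following Syndig1l on the high side were Baiap3 (4.40), which acts in dense-core vesicle traffic, Lrrc10b (4.34), the choline transporter gene Slc5a7 (4.24), the actin-binding Nexn (4.22), the kinase gene Prkch (3.94), the imprinted retrotransposon-derived Peg10 (3.87), Rarb (3.77), the carbonic anhydrase gene Car12 (3.68), Pde1c (3.58), the transcription factor genes Foxp2 (3.56) and Pbx3 (3.56), the synaptic vesicle genes Sv2c (3.55) and Syt6 (3.49), and the kappa opioid receptor gene Oprk1 (3.48). Following Cpne9 on the low side were Adcyap1 (-3.88), which encodes the neuropeptide PACAP, the Nogo receptor genes Rtn4r (-3.80) and Rtn4rl2 (-3.51), Nrn1 (-3.62), the glutamate receptor gene Grm2 (-3.62), Adra1b (-3.45), the transcription regulators Bhlhe22 (-3.33) and Prdm8 (-3.32), C1ql3 (-3.29), Exph5 (-3.26), Bdnf (-3.13), Igfbp6 (-3.10), Ccdc3 (-3.10) and BC030499 (-3.05). All of these values are log2 fold changes. In all 30 genes every NAc library lay on one side of every PFC library, as in 25% of all tested genes. The 30 genes were chosen by fold change in these same libraries, so their separation is not independent evidence. Baiap3, Rarb, Syt6, Nrn1, Prdm8 and C1ql3 overlap a measured gene on the opposite strand, and whether the counting used strand is not stated, so their values may include reads of that neighbour.

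**Figure D1:**
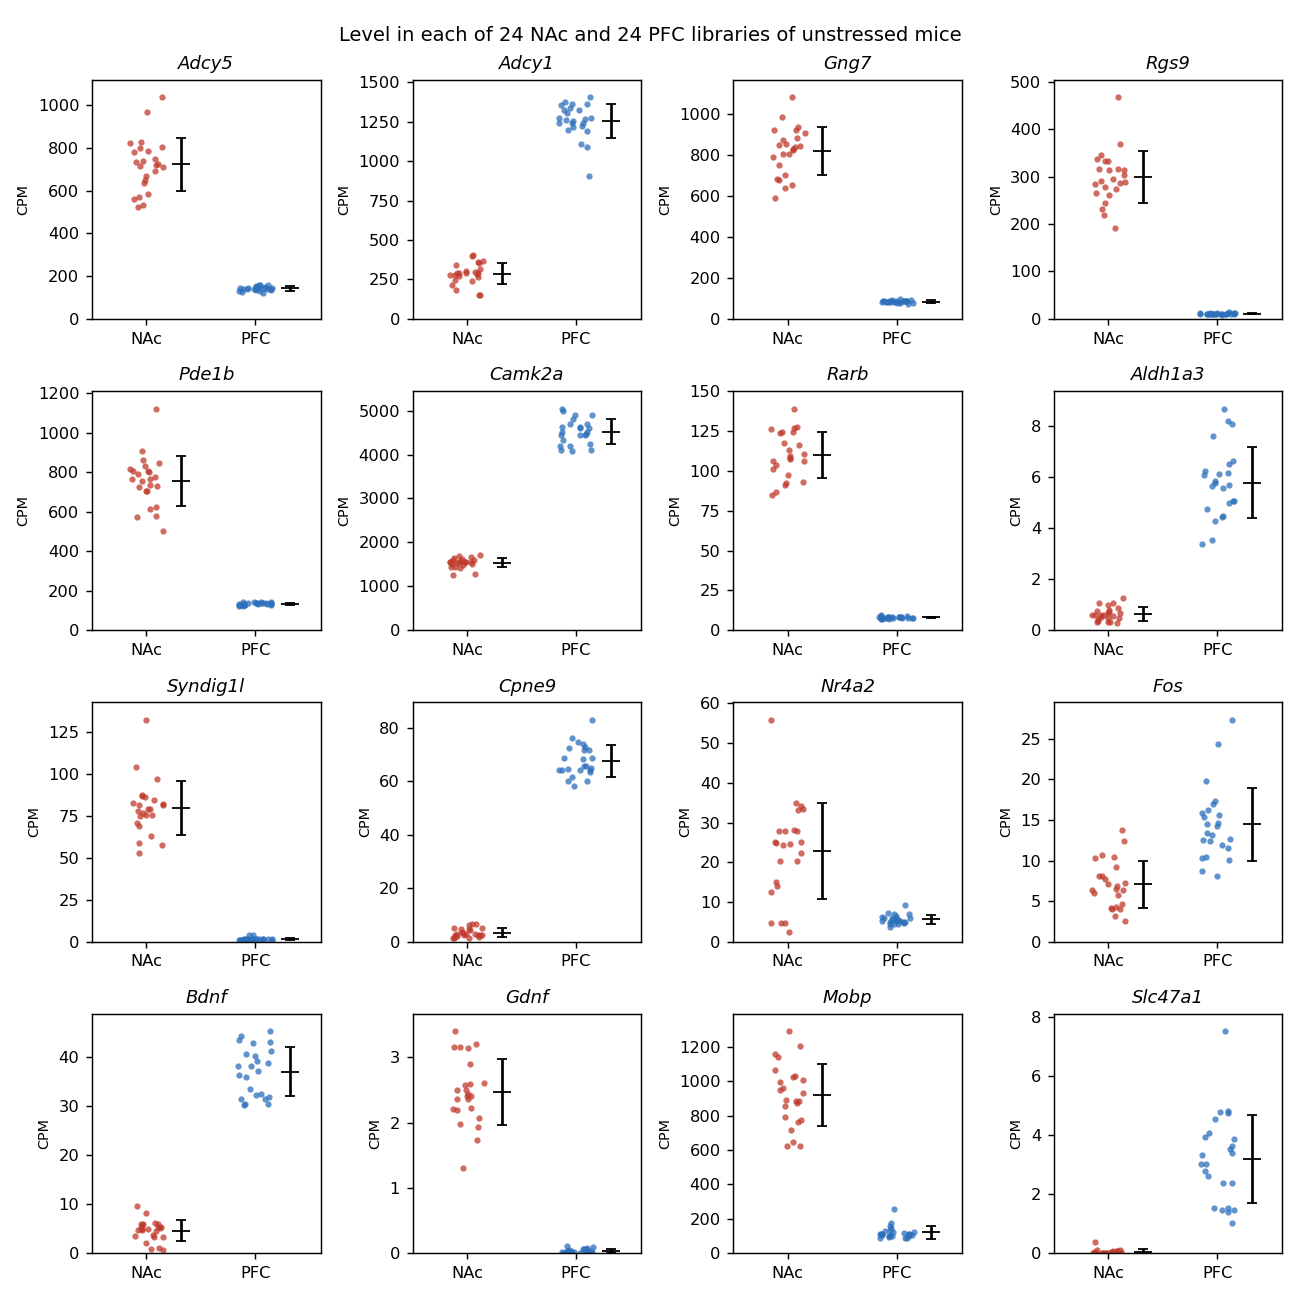
Level in CPM (linear axis) of 16 genes in each of the 24 NAc and 24 PFC libraries of unstressed mice. Points are libraries, and the bar beside them is the mean with its SD over the 24 libraries. Nr4a2 and Fos overlap between the regions, and the other 14 genes do not.

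Some genes were close to a region-specific presence. Counts were 0 in all 24 PFC libraries for 4 tested genes, B230110G15Rik, Gm28528, Lce3f and Gm42668, and in all 24 NAc libraries for none. Against a floor of 3 counts over the whole PFC group, these were at least 397-, 315-, 236- and 134-fold higher in NAc, where they had 1187, 941, 706 and 400 counts over 24 libraries. The vitamin D binding protein gene Gc had 675 counts in NAc and 3 in PFC, a ratio of 226 with an exact 95% interval from 76.9 to 1098 for counting error only. B230110G15Rik and Gm28528 overlap opposite-strand genes, and these 5 genes were chosen after their counts were seen. Among receptors, Drd3, the dopamine receptor typical of the ventral striatum, had 3.56, 5.61 and 7.87 CPM in NAc and 0, 0 and 0.0842 CPM in PFC, and 10841 counts against 13 over the 24 libraries of each region. The calcitonin receptor gene Calcr had 3.60, 9.12 and 17.01 CPM in NAc and 0, 0 and 0.118 CPM in PFC, with 17734 against 21 counts. Both ranges were fully apart, and with so few PFC counts the fitted log2 fold changes, 9.42 and 9.54, depend on the prior count.

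The machinery of cAMP differed in which family members led. Of 10 adenylyl cyclase genes, 1 was called higher in NAc (Adcy5) and 9 lower, 6 of them at least 2-fold, and the median log2 fold change of the list was -1.09 against 0.01 over all genes. Adcy5, the cyclase of striatal neurons that is driven by dopamine and adenosine receptors, had 526, 723 and 1038 CPM in NAc and 122, 142 and 161 CPM in PFC, a log2 fold change of 2.33 (SE 0.0579). Adcy1, a cyclase stimulated by calcium and calmodulin, had 149, 291 and 407 CPM in NAc and 908, 1262 and 1404 CPM in PFC, a log2 fold change of -2.17 (SE 0.0730). The NAc libraries were thus all high for Adcy5 and all low for Adcy1. Per exon length, Adcy5 made up 58.9 ± 5.74% of the summed RPKM of the 10 cyclases in NAc and 9.05 ± 0.515% in PFC, while Adcy1 made up 13.5 ± 3.34% in NAc and 45.7 ± 1.41% in PFC and Adcy2 13.4 ± 2.16% in NAc and 28.2 ± 0.827% in PFC (mean ± SD, n = 24 libraries each). The sum of the family was 170.3 ± 17.1 RPKM in NAc and 219.2 ± 13.97 RPKM in PFC.

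G proteins link receptors to the cyclases. Of 27 subunit genes, 13 (48.1%) were called higher and 11 (40.7%) lower in NAc, near the 42.2% and 41% over all genes, and the list's median of 0.03 lay within the scaling shift. Gng7, the gamma subunit that pairs with the alpha subunit of Gnal in striatal neurons, had 592, 834 and 1079.8 CPM in NAc and 73.6, 85.5 and 95.1 CPM in PFC, a log2 fold change of 3.26 (SE 0.0535). It took 56.2 ± 5.67% of the gamma subunit RPKM in NAc and 9.04 ± 0.609% in PFC, where Gng3 (17.4 ± 2.41% in NAc and 41.2 ± 1.39% in PFC) and Gng2 (9.37 ± 2.17% in NAc and 25.9 ± 1.30% in PFC) led. Of the 2 stimulatory alpha subunits, Gnal, first known from olfactory neurons, held 56.3 ± 5.02% of their summed RPKM in NAc and 16.9 ± 0.855% in PFC, and Gnas the rest. Gnal, Gnas and Gng3 overlap opposite-strand genes. Thus a different alpha and a different gamma subunit led in each region, although the sum over the alpha pair was 147.2 ± 4.59 RPKM in NAc and 119.5 ± 2.68 RPKM in PFC.

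Genes that end the signal were higher in NAc more often than lower. Of 17 phosphodiesterase genes, 11 (64.7%) were called higher and 5 (29.4%) lower, against 42.2% and 41% over all genes. At least 2-fold apart were 7 (41.2%) and 1 (5.88%), against 9.16% and 8.93%, and the median log2 fold change was 0.84. Pde1b, a calmodulin-activated phosphodiesterase abundant in striatum, had 504, 766 and 1121 CPM in NAc and 122, 134 and 143 CPM in PFC, and Pde10a, the other main striatal enzyme, 596, 941 and 1519 CPM in NAc and 77.9, 97.03 and 119.8 CPM in PFC. Pde10a is also one of the striatal markers above, and it overlaps an opposite-strand gene. Pde1a was lower in NAc, 182, 316 and 446 CPM in NAc and 411, 473 and 559 CPM in PFC, with overlapping ranges although all 24 animals had the lower value in NAc. Pde1b and Pde10a together dominated the family in NAc (38.3 ± 3.22% and 19.9 ± 1.99% of its RPKM in NAc, against 14 ± 0.793% and 4.21 ± 0.495% in PFC), and Pde1a in PFC (14.3 ± 4.04% in NAc and 44.5 ± 1.90% in PFC). The summed RPKM of the family was 364.2 ± 33.9 in NAc and 177.6 ± 6.22 in PFC. Of 17 regulators of G protein signalling (RGS proteins, which speed up the shut-off of G proteins), 10 (58.8%) were called higher and 5 (29.4%) lower. Rgs9, whose longer form is concentrated in striatum, is also one of the striatal markers above. It had 192, 294 and 467 CPM in NAc and 8.49, 10.9 and 13.9 CPM in PFC, a log2 fold change of 4.75 (SE 0.0664), and Rgs2 was also higher (1.44). Rgs4, the most abundant family member in both regions, was lower in NAc, with a log2 fold change of -0.80.

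**Figure D2:**
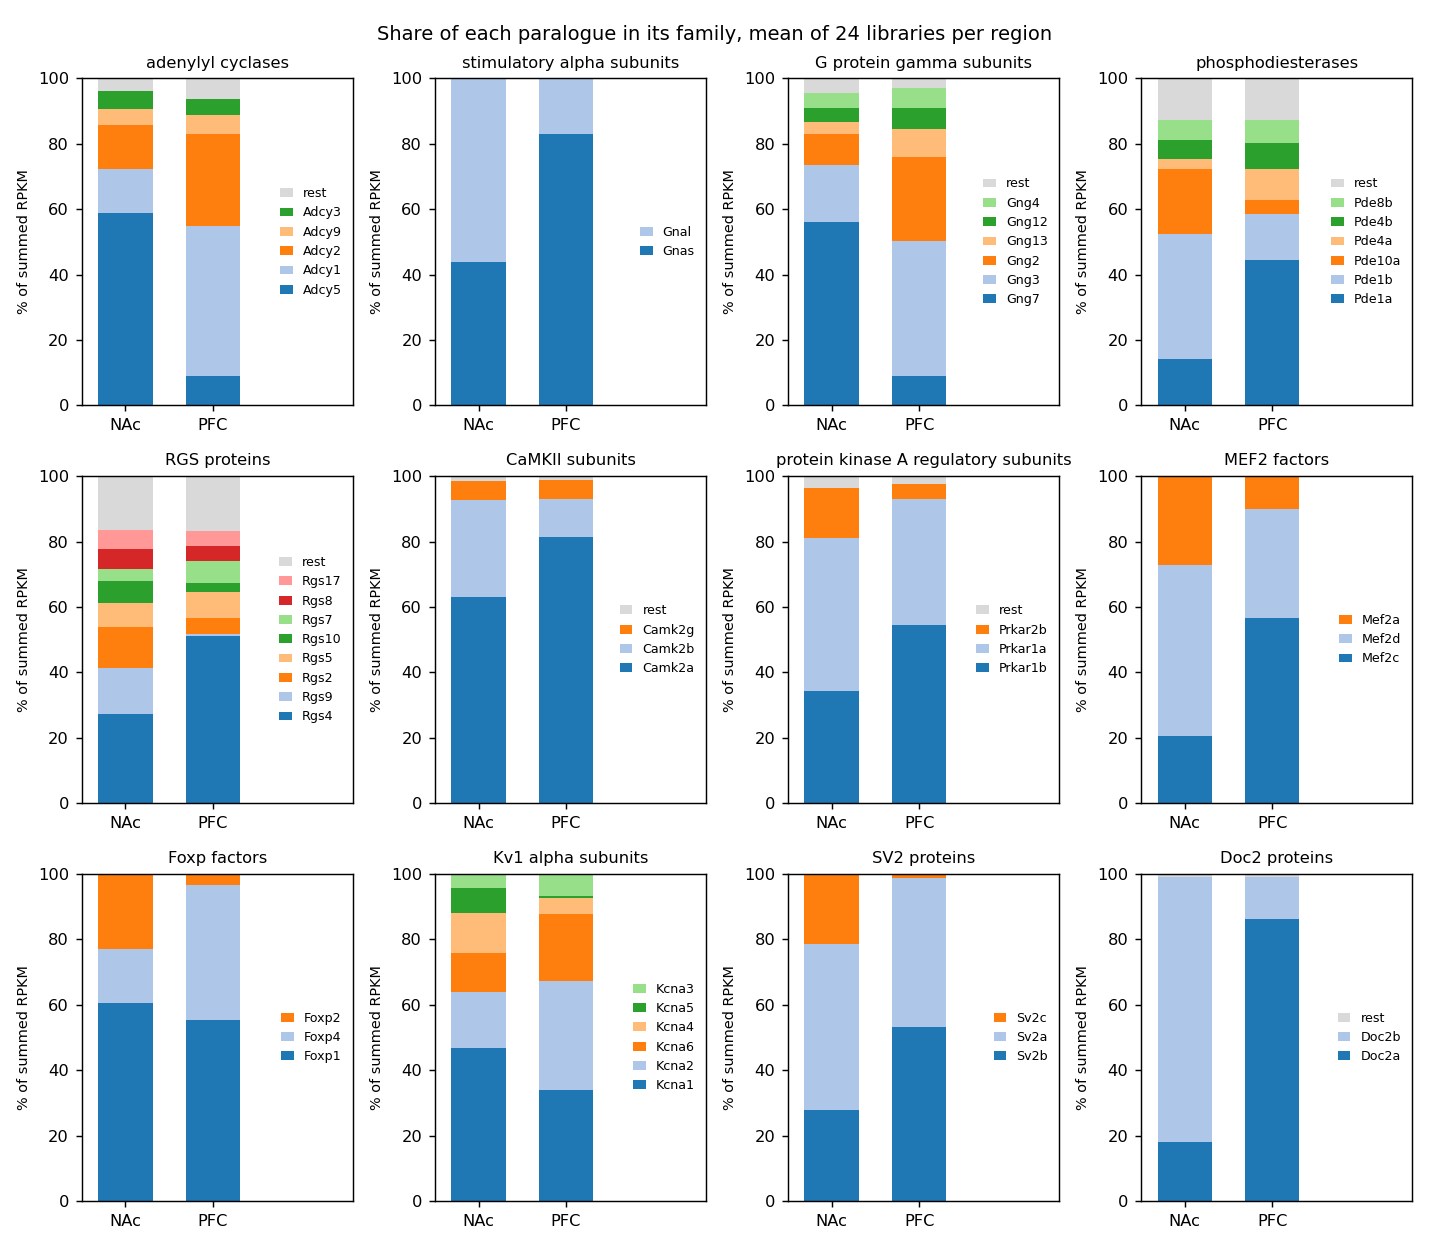
Share of each gene in the summed RPKM of its family, in percent, as the mean over 24 NAc and 24 PFC libraries. Genes under 5% in both regions are pooled as "rest". The leading gene differs between the regions in 8 of the 12 families drawn: adenylyl cyclases, stimulatory alpha subunits, gamma subunits, phosphodiesterases, protein kinase A regulatory subunits, MEF2 factors, SV2 proteins and Doc2 proteins.

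Kinases of calcium signalling were mostly lower in NAc. Of 22 protein kinase C and calmodulin-dependent kinase genes, 6 (27.3%) were called higher and 16 (72.7%) lower in NAc, against 42.2% and 41% over all genes. The median log2 fold change was -0.61. Camk2a, the alpha subunit of the calcium/calmodulin kinase of excitatory synapses, had 1264, 1547 and 1708 CPM in NAc and 4072, 4522 and 5040.5 CPM in PFC, a log2 fold change of -1.56 (SE 0.0257). Its inhibitor gene Camk2n1 was lower too (-1.44), as were Camk2g (-1.30) and Camkk2 (-1.16). Camk2b stood at 29.7 ± 2.13% of the kinase's RPKM in NAc and 11.4 ± 0.511% in PFC, and Camk2a at 63.1 ± 1.92% in NAc and 81.5 ± 0.895% in PFC. The sum of the 4 subunits was 325.8 ± 18.8 RPKM in NAc and 743.3 ± 40.6 RPKM in PFC. Camk2b itself differed little, with a log2 fold change of 0.19 that ran from 0.03 to 0.32 under other processing. In contrast Prkch, a calcium-independent protein kinase C, was higher in NAc with 40.6, 56.1 and 74.5 CPM in NAc and 2.87, 3.54 and 5.35 CPM in PFC, and Prkcq was higher (log2 fold change 1.43). Among 22 genes of protein kinase A and of phosphatase control, 11 (50%) were called higher and 10 (45.5%) lower, against 42.2% and 41% over all genes. The kinase's regulatory subunit gene Prkar2b had 154, 184 and 198 CPM in NAc and 71.4, 79.7 and 86.4 CPM in PFC, while Prkar1b was lower in NAc (log2 fold change -1.27). The set of 22 Ras and Rap regulators had 7 called higher and 14 lower: Rasgrp2 (2.85, with an opposite-strand overlap) and Rasd2 (2.17), a small GTPase also known as Rhes that is enriched in striatum, were on the high side, and Rasgrf2 (-1.73), an exchange factor that reads calcium, on the low side.

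Endocannabinoid genes, which make, sense and break down lipid messengers, were mostly lower in NAc, 9 of 12 called lower and 2 higher, with a median log2 fold change of -0.75. They include the receptor gene Cnr1, with 74.7, 123 and 176 CPM in NAc and 266, 311 and 350.3 CPM in PFC, the enzyme that makes 2-arachidonoylglycerol, Dagla (-1.36), the enzymes that break endocannabinoids down, Faah (-1.97) and Mgll (-0.74), and the receptor-binding Cnrip1 (-0.76), the last pair with opposite-strand overlaps. Genes of synthesis, reception and breakdown were thus among the lower ones. Of 19 adenosine and purine signalling genes, 10 (52.6%) were called higher and 6 (31.6%) lower, against 42.2% and 41% over all genes. Besides the marker Adora2a, P2ry1, an ADP receptor, had 19.4, 32.3 and 46.3 CPM in NAc and 0.901, 1.41 and 2.17 CPM in PFC, and Nt5e, the cell-surface enzyme that makes adenosine from AMP, had 13.4, 20.02 and 30.3 CPM in NAc and 1.80, 2.67 and 3.86 CPM in PFC. P2ry1 overlaps an opposite-strand gene.

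Retinoic acid, a vitamin A derivative that binds nuclear receptors, is used in the developing and adult striatum. Of its 17 genes, 9 (52.9%) were called higher and 8 (47.1%) lower in NAc, against 42.2% and 41% over all genes, and 5 and 4 were at least 2-fold apart. The receptor genes Rarb, with 84.6, 109 and 139 CPM in NAc and 6.97, 7.87 and 9.31 CPM in PFC, and Rxrg, with 39.6, 53.8 and 78.3 CPM in NAc and 4.19, 8.89 and 11.9 CPM in PFC, and the binding protein gene Crabp1, with 2.81, 3.95 and 5.06 CPM in NAc and 0.0143, 0.161 and 0.281 CPM in PFC, were all higher in every NAc library than in any PFC library. The synthesising enzymes were lower: Aldh1a3 had 0.294, 0.603 and 1.24 CPM in NAc and 3.39, 5.72 and 8.67 CPM in PFC and Aldh1a2 had 0.142, 0.616 and 1.21 CPM in NAc and 3.42, 5.96 and 11.4 CPM in PFC. Aldh1a2 is also one of the meningeal markers, all 10 of which were lower in NAc. The receptor gene Rara was lower as well (-1.18).

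The promoter of Rarb is shown because it holds the textbook retinoic acid response element, a pair of direct repeats spaced by 5 bases that is known to make Rarb itself a retinoic acid target. The sequence is the RefSeq promoter on GRCm38.p6, chr14:16575427-16575726, minus strand, from 250 bases before to 50 bases after the annotated start. Capitals mark the match to GTTCA, any 5 bases and AGTTCA, searched as 1 motif on both strands, whose first base lies at -52, with -1 the base just before the start.
Rarb: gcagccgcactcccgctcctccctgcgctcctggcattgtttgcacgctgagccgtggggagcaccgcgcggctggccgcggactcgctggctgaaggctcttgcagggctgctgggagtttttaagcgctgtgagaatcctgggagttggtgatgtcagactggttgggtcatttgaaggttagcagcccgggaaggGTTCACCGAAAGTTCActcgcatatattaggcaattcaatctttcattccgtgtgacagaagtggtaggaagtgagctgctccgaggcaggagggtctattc
This element was found in 4 of 16216 promoters (0.0247%) of tested genes. It stood in 1 of 1325 promoters of genes at least 2-fold higher in NAc, that of Rarb, and in 0 of 1398 promoters of genes at least 2-fold lower in NAc. None of the other 12 retinoic acid genes with a promoter in the table held it.

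Transcription factors of the forebrain were at least 2-fold apart in 29 of 50 genes, 18 (36%) higher and 11 (22%) lower in NAc, against 9.16% and 8.93% of all tested genes. Called at any size were 29 higher and 19 lower. Foxp2, a repressor linked to striatal circuits, had 83.8, 110.3 and 129 CPM in NAc and 5.66, 9.31 and 15.3 CPM in PFC, and Pbx3 had 59.95, 72.9 and 90.7 CPM in NAc and 5.14, 5.87 and 9.82 CPM in PFC. Zfp503 (3.38), Meis1 (2.91) and the GABAergic lineage gene Dlx5 (1.93) were higher too. The genes lower in NAc include Bhlhe22 (-3.33), Otx1 (-2.77) and Tshz3 (-2.25). Mef2c, an activity-dependent factor of excitatory neurons, had 135, 234 and 328 CPM in NAc and 1147, 1288 and 1472 CPM in PFC, a log2 fold change of -2.56 (SE 0.0687). It fell to 20.6 ± 3.82% of the summed RPKM of the 3 MEF2 genes in NAc, against 56.6 ± 1.86% in PFC, and their sum was 68.8 ± 4.19 RPKM in NAc and 145.5 ± 5.07 RPKM in PFC.

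Receptors for monoamines and acetylcholine had members on both sides. Of 36 genes, 13 (36.1%) were called higher and 19 (52.8%) lower in NAc, against 42.2% and 41% over all genes. At least 2-fold apart were 10 (27.8%) and 8 (22.2%), against 9.16% and 8.93%. The median log2 fold change was -0.17 while the mean level of the list was higher in NAc, by 0.56 ± 0.13 log2 units (mean ± SD over 24 animals). Besides the dopamine receptors, the serotonin receptor genes Htr2c (2.39), Htr4 (2.42) and Htr1d (5.0) and the muscarinic receptor gene Chrm5 (5.06) were higher in NAc. Htr2c, the most expressed of these, had 147, 193 and 231 CPM in NAc and 22.4, 36.7 and 43.7 CPM in PFC. Of the noradrenaline receptors, Adra1b was lower with 1.46, 2.87 and 5.46 CPM in NAc and 25.8, 31.5 and 37.4 CPM in PFC, and Adra1d, which overlaps an opposite-strand gene, was lower with 0.0279, 0.756 and 1.85 CPM in NAc and 21.5, 26.4 and 30.2 CPM in PFC. The muscarinic receptor gene Chrm3 (-1.72) and the histamine receptor gene Hrh1 (-1.47) were lower in NAc. Adra2b was on the high side with a low level, 0.842, 1.69 and 3.24 CPM in NAc and 0, 0.0295 and 0.0897 CPM in PFC.

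Neuropeptide signalling differed strongly gene by gene and little as a list. Of 30 receptor genes 14 (46.7%) were called higher and 13 (43.3%) lower in NAc, and of 27 peptide and granin genes 11 (40.7%) and 12 (44.4%). Over all genes the shares were 42.2% and 41%. At least 2-fold higher and lower were 9 (30%) and 7 (23.3%) receptor genes and 8 (29.6%) and 6 (22.2%) peptide genes, against 9.16% and 8.93%. The list medians of -0.01 and -0.11 lie within the scaling shift. The mean over the genes of each list, which weights strongly changed genes more than the median does, differed by 0.59 ± 0.16 log2 units for receptors and 0.48 ± 0.19 for peptides (SD, n = 24 animals), so mean and median differ in sign. Oprk1, the receptor of dynorphin, had 56.3, 78.8 and 106 CPM in NAc and 3.49, 7.13 and 10.6 CPM in PFC. The mu receptor gene Oprm1 was higher (log2 fold change 3.04), with an opposite-strand overlap. The tachykinin receptor genes Tacr1 (3.74) and Tacr3 (4.98), the melanocortin receptor gene Mc3r (4.46) and the galanin receptor gene Galr1 (5.45) were higher too. On the low side Crhr1, the receptor of corticotropin-releasing hormone, had 3.96, 5.52 and 7.41 CPM in NAc and 23.3, 28.6 and 33.98 CPM in PFC, and Sstr3 (-2.34) and Cckbr (-2.27) were also lower. Of the peptides themselves, neurotensin (Nts) had 11.8, 21.5 and 41.1 CPM in NAc and 0, 0.107 and 0.453 CPM in PFC, and Cartpt 13.5, 26.6 and 50.6 CPM in NAc and 0.352, 0.919 and 1.36 CPM in PFC. Adcyap1 had 0.198, 2.80 and 9.65 CPM in NAc and 29.8, 36.8 and 44.8 CPM in PFC, Cck 2.88, 33.6 and 60.7 CPM in NAc and 179, 223 and 249.9 CPM in PFC and Vip 2.78, 8.71 and 13.8 CPM in NAc and 47.3, 55.6 and 77.9 CPM in PFC. Sst, the somatostatin gene, was not called, with 102, 136 and 160.3 CPM in NAc and 114, 141 and 169 CPM in PFC and a log2 fold change of -0.06 (SE 0.0381, adjusted p = 0.14).

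Orphan receptors, G protein-coupled receptors without a settled ligand, were the receptor list with the most members higher in NAc. Of 21 genes, 16 were called higher and 5 lower, 11 and 3 at least 2-fold, with a median log2 fold change of 1.00. Gpr149 had 14.2, 20.4 and 28.3 CPM in NAc and 0.318, 0.647 and 0.944 CPM in PFC and Gpr101 13.4, 35.05 and 53.3 CPM in NAc and 0.192, 0.466 and 1.82 CPM in PFC. Gpr6, also one of the striatal markers above, was higher (log2 fold change 5.46). Gpr26 and Gpr22 were lower in NAc (log2 fold changes -1.45 and -1.45), and both overlap opposite-strand genes.

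Receptors for glutamate and GABA had members on both sides. Of 24 glutamate receptor genes, 10 were called higher and 14 lower in NAc, 2 (8.33%) and 3 (12.5%) of them at least 2-fold, against 9.16% and 8.93% of all tested genes. Grm2, a presynaptic metabotropic receptor, had 2.69, 6.88 and 10.8 CPM in NAc and 66.7, 78.8 and 92.2 CPM in PFC, and Grm8 was lower (log2 fold change -1.93). Grm4 was higher (log2 fold change 1.28) and Grin2a, an NMDA receptor subunit, lower (log2 fold change -1.25). Of 20 GABA and glycine receptor genes, 9 (45%) were called higher and 10 (50%) lower, against 42.2% and 41% over all genes. At least 2-fold apart were 4 (20%) and 3 (15%). The median was -0.03 and the mean difference 0.19 ± 0.14 log2 units. The rarer subunit genes Gabre (4.09) and Gabrq (2.84) and Gabrg1, with 55.7, 66.6 and 88.7 CPM in NAc and 22.5, 26.6 and 30.8 CPM in PFC, were higher, whereas the GABA-B receptor gene Gabbr2 (-1.91) was lower.

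Channels that set excitability were mostly lower in NAc. Of 57 potassium channel genes, 14 were called higher and 42 lower, 7 and 20 at least 2-fold, with a median log2 fold change of -0.68. The channels opened by G proteins (GIRK) were among them: Kcnj9 had 31.5, 46.9 and 61.02 CPM in NAc and 175, 202 and 218 CPM in PFC, and Kcnj6 (-1.83) and Kcnj3 (-1.58, with an opposite-strand overlap) were lower too. Summed over the 4 GIRK genes, the level was 25.6 ± 5.57 RPKM in NAc and 88.6 ± 3.38 RPKM in PFC, although the fourth member, Kcnj5, was higher in NAc (3.90) at a low level. The voltage-gated genes Kcna5, with 20.8, 27.6 and 34.7 CPM in NAc and 1.18, 1.76 and 2.54 CPM in PFC, and Kcna4, with 49.8, 76.1 and 111 CPM in NAc and 22.02, 26.8 and 28.8 CPM in PFC, were higher, against Kcna2, which was lower (log2 fold change -0.80). Of 37 sodium and calcium channel genes, 13 were called higher and 22 lower. Scn4b, a beta subunit that shapes the resurgent sodium current, had 377, 562 and 929 CPM in NAc and 30.1, 49.1 and 80.4 CPM in PFC. Scn4b was 41.6 ± 4.64% of the RPKM of the 4 beta subunits in NAc and 4.45 ± 0.808% in PFC. Of 23 calcium sensor and buffer genes, 8 were called higher and 13 lower, and the lower ones include Vsnl1, with 199, 296 and 405 CPM in NAc and 792, 877 and 995 CPM in PFC, and the calmodulin-binding Nrgn, with 129, 193 and 259.9 CPM in NAc and 619.8, 832 and 1089.5 CPM in PFC.

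The release machinery was lower in NAc in most genes but kept its own NAc members. Of 47 vesicle fusion genes, 10 were called higher and 35 lower, 5 and 18 at least 2-fold, with a median log2 fold change of -0.72. Stx1a, a syntaxin of the SNARE complex that fuses vesicles with the membrane, had 24.1, 47.7 and 67.8 CPM in NAc and 269, 299 and 328 CPM in PFC, and Snap25, its partner, 1249, 1834 and 2130.4 CPM in NAc and 3497, 3776 and 4404 CPM in PFC. Sv2c, a vesicle glycoprotein, had 233, 322 and 454 CPM in NAc and 22.04, 28.03 and 34.3 CPM in PFC, and was 21.5 ± 3.74% of the SV2 family's RPKM in NAc and 1.32 ± 0.164% in PFC. The calcium sensors of spontaneous release exchanged places: Doc2b was 81.0 ± 4.91% of the Doc2 RPKM in NAc and 12.9 ± 1.57% in PFC, and Doc2a 18.1 ± 4.86% in NAc and 86.2 ± 2.06% in PFC, with family sums of 30.6 ± 1.96 RPKM in NAc and 32.5 ± 2.33 RPKM in PFC. Both Doc2 genes overlap opposite-strand genes.

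Molecules that join the sides of a synapse were also mostly lower, 29 of 41 synaptic organiser genes called lower in NAc and 10 higher, with a median log2 fold change of -0.69. Nptxr, the receptor of the neuronal pentraxins that gather AMPA receptors, had 83.8, 168 and 266 CPM in NAc and 1154, 1244 and 1496 CPM in PFC, and Nptx1 and Nptx2 were lower (log2 fold changes -1.64 and -1.48). C1ql3 had 5.90, 22.7 and 47.7 CPM in NAc and 188, 224 and 255 CPM in PFC. Slitrk6 was the organiser with the highest log2 fold change, 5.16, with 5.45, 8.02 and 11.04 CPM in NAc and 0.0948, 0.209 and 0.393 CPM in PFC. In the cadherin list 17 of 25 genes were called lower and 5 higher, 5 and 0 of them at least 2-fold, and Cdh11 was lower (log2 fold change -1.09).

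Of 59 axon guidance genes, 22 (37.3%) were called higher and 31 (52.5%) lower in NAc, against 42.2% and 41% over all genes. The Nogo receptors, which bind inhibitors of axon growth in myelin, were lower: Rtn4r had 1.57, 6.67 and 10.8 CPM in NAc and 73.5, 85.9 and 103 CPM in PFC and Rtn4rl2 0.156, 3.16 and 6.23 CPM in NAc and 27.7, 34.3 and 39.1 CPM in PFC, and the 3 receptors summed to 14.9 ± 2.63 RPKM in NAc and 88.5 ± 6.18 RPKM in PFC. The ephrin receptor gene Ephb6 (-2.12) and Sema7a (-1.80) were lower too, whereas the attractant gene Ntn1 had 19.9, 29.1 and 48.4 CPM in NAc and 5.38, 6.89 and 8.75 CPM in PFC and its receptor gene Dcc was higher (log2 fold change 1.25). Sema3f was higher (log2 fold change 2.03). The netrin gene and this receptor gene were thus both higher in NAc. In the matrix list, 14 of 35 genes (40%) were called higher and 17 (48.6%) lower, near the shares over all genes. The median was -0.10 and the mean difference 0.18 ± 0.08 log2 units. The link protein genes went opposite ways, Hapln4 of perineuronal nets with 13.5, 23.3 and 40.02 CPM in NAc and 90.9, 103 and 157 CPM in PFC, and Hapln2, which sits at the nodes of myelinated axons, with 9.64, 14.7 and 20.2 CPM in NAc and 2.38, 3.25 and 5.40 CPM in PFC.

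Growth factors were mostly lower in NAc, 35 of 49 called lower and 11 higher, 19 and 4 of them at least 2-fold, with a median log2 fold change of -0.43. Bdnf, the brain-derived neurotrophic factor that cortical neurons supply to the striatum, had 0.669, 4.82 and 9.63 CPM in NAc and 30.3, 37.6 and 45.2 CPM in PFC, a log2 fold change of -3.13 (SE 0.181). Gdnf, the glial cell line-derived factor that supports dopamine neurons, had 1.30, 2.43 and 3.40 CPM in NAc and 0, 0.0231 and 0.113 CPM in PFC, a log2 fold change of 6.25 (SE 0.213), at low counts. The Wnt ligand gene Wnt4 had 1.46, 4.06 and 6.04 CPM in NAc and 26.1, 32.6 and 36.6 CPM in PFC, and Wnt9a was lower (log2 fold change -2.82), while Wnt2 was higher (log2 fold change 2.23). Igfbp6 was lower with 2.62, 3.93 and 6.98 CPM in NAc and 28.7, 34.4 and 40.3 CPM in PFC. The list's mean level in NAc was lowest in replicates 27 (2.59 log2 CPM) and 19 (2.65) and highest in replicate 48 (3.15), which were also the lowest and highest in cortical excitatory markers, and the part of those markers was not tested.

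Immediate early genes, which neurons switch on within minutes of activity, were called lower in NAc in 15 of 17 cases and higher in 2, Nr4a2 and Fosl2. The median log2 fold change was -0.77, and the list's mean level was lower in NAc in all 24 animals, by 0.62 ± 0.15 log2 units (mean ± SD). Fos had 2.54, 6.67 and 13.7 CPM in NAc and 8.11, 13.8 and 27.3 CPM in PFC, a log2 fold change of -1.09 (SE 0.0995), with overlapping ranges but the lower value in NAc in all 24 animals. Egr3 (-1.42), Arc (-1.28), Junb (-0.95), Nr4a1 (-1.05) and Ier2 (-1.69) were lower too, and Junb and Dusp1 (-0.88) overlap opposite-strand genes. The level of the list moved with the animal: replicate 27 had the lowest mean and replicate 50 the highest in both regions. Nr4a2, a nuclear receptor and member of the same list, went the other way, with 2.38, 24.7 and 55.8 CPM in NAc and 3.79, 5.52 and 9.15 CPM in PFC; a log2 fold change of 1.80 (SE 0.204), adjusted p = 1.31e-08. It was higher in NAc in 21 of 24 animals, and 4 NAc libraries (replicates 27, 3, 13 and 19) lay within or below the PFC range while the other 20 lay above every PFC library. The markers of cortical excitatory neurons moved with it: replicate 27 had the lowest cortical score of the NAc libraries and the lowest Nr4a2, and replicate 48 the highest of both, 55.8 CPM. Their part in the result was not tested.

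The letters TGACG, the core of the cAMP response element bound by the activity-dependent factor CREB, stood in the promoters of 11 of the 13 immediate early genes that have one in the RefSeq table, 10 lower and 1 higher in NAc. A gene counts here if any of its promoters holds the letters, as 4168 of all 12722 genes with a promoter did, and by promoter the share was 28.3% of 16216. Both strands were searched, and matches of TGACG include those of the full element TGACGTCA. Promoters of Fos and Dusp1, lower in NAc, and of Nr4a2, higher in NAc, are shown because they hold these letters while the genes differ in direction. Capitals mark TGACG or its reverse complement CGTCA in Fos (chr12:85473640-85473939, plus strand) and Nr4a2 (chr2:57123954-57124253, minus strand), and TGACGTCA in Dusp1 (chr17:26508423-26508722, minus strand), all on GRCm38.p6 and read 5′ to 3′ towards the gene.
Fos: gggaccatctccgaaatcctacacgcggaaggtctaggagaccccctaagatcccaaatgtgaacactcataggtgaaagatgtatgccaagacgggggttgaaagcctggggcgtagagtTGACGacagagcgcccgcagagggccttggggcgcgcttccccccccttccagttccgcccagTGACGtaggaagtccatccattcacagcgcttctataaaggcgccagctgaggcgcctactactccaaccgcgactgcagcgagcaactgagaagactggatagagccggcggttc
Nr4a2: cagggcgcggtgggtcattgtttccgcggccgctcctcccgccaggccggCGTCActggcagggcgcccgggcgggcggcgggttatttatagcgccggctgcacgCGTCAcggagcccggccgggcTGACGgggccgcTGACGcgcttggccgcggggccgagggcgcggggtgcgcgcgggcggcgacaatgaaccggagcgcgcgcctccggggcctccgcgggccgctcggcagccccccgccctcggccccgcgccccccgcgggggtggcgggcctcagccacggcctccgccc
Dusp1: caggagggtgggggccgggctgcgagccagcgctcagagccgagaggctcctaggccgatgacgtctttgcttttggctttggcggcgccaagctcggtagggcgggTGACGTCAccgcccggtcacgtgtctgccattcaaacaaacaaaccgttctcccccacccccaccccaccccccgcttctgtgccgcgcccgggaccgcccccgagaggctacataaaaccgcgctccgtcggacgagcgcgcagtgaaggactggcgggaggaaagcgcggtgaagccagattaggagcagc
The matches begin at -129 and -66 in Fos, at -200, -144, -123 and -111 in Nr4a2, and at -143 in Dusp1. The full element was in 2.74% of all promoters, 1.66% of those of genes at least 2-fold higher in NAc and 1.72% of those at least 2-fold lower in NAc.

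Both sets of region-biased genes shared a promoter composition. The median number of CG dinucleotides in 300 bases was 11 for genes at least 2-fold higher in NAc and 11 for those at least 2-fold lower in NAc, against 18 over all tested genes. The TATA box letters TATAAA were in 10.3% and 10.4% of these promoters, against 7.80% over all, and the E-box CAGATG in 16.8% and 16.2%, against 12.6%. A gene can have several promoters in the table, and these shares are descriptions of 12722 of the 18635 tested genes.

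Imprinted genes, expressed from 1 parental copy, and the listed long noncoding RNAs were called higher in NAc more often than lower. Of 33 imprinted genes, 22 (66.7%) were called higher and 9 (27.3%) lower, against 42.2% and 41% over all genes, with a median log2 fold change of 0.50. Of 21 listed long noncoding RNA genes (20 symbols, 1 of them with 2 gene identifiers), 16 were called higher and 4 lower, with a median of 0.47. The wider classes differed less. All 581 tested genes annotated as long intergenic noncoding RNAs had a median of 0.11, with 18.2% at least 2-fold higher and 14.6% lower. The 606 annotated as antisense RNAs had a median of 0.08, with 16.5% and 13.9%. Both medians lie within the scaling shift. Peg10 had 142, 267 and 444 CPM in NAc and 15.6, 17.9 and 25.1 CPM in PFC, and Magel2 3.87, 6.64 and 15.9 CPM in NAc and 0.438, 0.834 and 1.10 CPM in PFC, and Zdbf2 was higher (log2 fold change 1.76). Rian, a long noncoding RNA of the Dlk1 cluster, was higher (0.50), as was Neat1 (0.97), the scaffold of nuclear paraspeckles. Miat was lower in NAc with 111, 160.4 and 260.0 CPM in NAc and 335, 418 and 546 CPM in PFC. By chromosome, the X had the largest share of genes at least 2-fold higher in NAc, 89 of 669 (13.3%), with 27 (4.04%) at least 2-fold lower. Over all tested genes the shares were 9.16% and 8.93%. Chromosomes 9 (12.5%) and 3 (11.9%) came close to the X on the high side, with 7.83% and 9.87% at least 2-fold lower. Median log2 fold changes by gene length were small, from -0.10 for genes over 200 kb to 0.04 for genes of 50 to 100 kb.

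Ribosomal protein genes were mostly higher and cholesterol synthesis genes mostly lower in NAc. Of 80 cytosolic ribosomal protein genes, 68 were called higher and 6 lower in NAc, 2 and 0 of them at least 2-fold, with a median log2 fold change of 0.36, and the list's mean was higher in NAc in all 24 animals by 0.35 ± 0.09 log2 units. Rps27 had 80.3, 118 and 145 CPM in NAc and 35.7, 44.5 and 54.1 CPM in PFC. Of 22 cholesterol synthesis genes, 20 were called lower and 1 higher, none at least 2-fold, with a median of -0.35. Hmgcs1, an early enzyme of the pathway, had 128, 202 and 266 CPM in NAc and 318, 372 and 408 CPM in PFC. Of 85 nuclear genes of oxidative phosphorylation, 46 were called higher and 28 lower, 1 and 1 at least 2-fold, with a median of 0.12, which is within the scaling shift. Among the 13 mitochondrially encoded genes, 3 were called higher and 3 lower, 1 of them at least 2-fold lower.

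Genes of the circadian clock, the stress axis and gonadal steroids had members on both sides. Of 18 clock genes, 7 (38.9%) were called higher and 10 (55.6%) lower in NAc, against 42.2% and 41% over all genes. Cry1 was higher (log2 fold change 0.69) and Bhlhe40, which overlaps an opposite-strand gene, lower (log2 fold change -1.77). Of 15 corticosteroid and stress-axis genes, 7 (46.7%) were called higher and 5 (33.3%) lower. Their median was 0.09 and their mean difference -0.03 ± 0.08 log2 units. Fkbp5, a glucocorticoid-induced chaperone, had 30.6, 35.1 and 49.99 CPM in NAc and 17.1, 21.1 and 31.4 CPM in PFC, and Crhbp, which binds corticotropin-releasing hormone, was lower (log2 fold change -1.04). Of 16 gonadal steroid receptor and enzyme genes, 4 (25%) were called higher and 9 (56.25%) lower. The oestrogen receptor gene Esr1 had 2.11, 3.76 and 6.11 CPM in NAc and 3.33, 7.58 and 10.5 CPM in PFC.

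Markers of some cells other than projection neurons differed strongly, and those of astrocytes, microglia and vessels differed little in size. All 14 oligodendrocyte and myelin markers were at least 2-fold higher in NAc, with a median log2 fold change of 2.35. Mobp, a protein of compact central myelin, had 621, 912 and 1291 CPM in NAc and 87.6, 110.2 and 254 CPM in PFC. Markers of oligodendrocyte precursors differed less, 7 called higher and 3 lower of 10, with a median of 0.21. All 7 markers of cholinergic neurons were higher in NAc, among them Slc5a7 with 27.5, 35.5 and 44.6 CPM in NAc and 1.18, 1.77 and 3.69 CPM in PFC, and 9 of 9 tested markers of ependyma and choroid plexus, which line the ventricles, with a median of 2.01. All 10 markers of the meninges were at least 2-fold lower in NAc, with a median of -1.84, and Slc47a1 had 0, 0.0132 and 0.384 CPM in NAc and 1.01, 3.18 and 7.52 CPM in PFC. The 5 red blood cell genes were lower too, with a median of -1.07. Astrocyte markers (4 higher and 9 lower of 17, median -0.23), microglia markers (3 and 7 of 12, median -0.14) and vascular markers (1 and 12 of 14, median -0.25) had none at least 2-fold apart. Called in either direction were 76.5%, 83.3% and 92.9% of them, against 83.2% over all genes. The microglia median was about the size of the scaling shift. The 17 interneuron markers had 7 (41.2%) called higher and 6 (35.3%) lower, against 42.2% and 41% over all genes. Of these, Gad2, the GABA-synthesising enzyme that projection neurons also make, was higher (log2 fold change 2.12) and Pvalb, of fast-spiking interneurons, lower (log2 fold change -2.01). Markers of the neighbouring septum, hypothalamus and thalamus had 7 of 11 called higher and 3 lower, with a median of 0.65. These neighbouring-tissue, ventricle, myelin and meningeal markers moved with the region, and their part in the differences of the other lists was not tested.

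**Figure D3:**
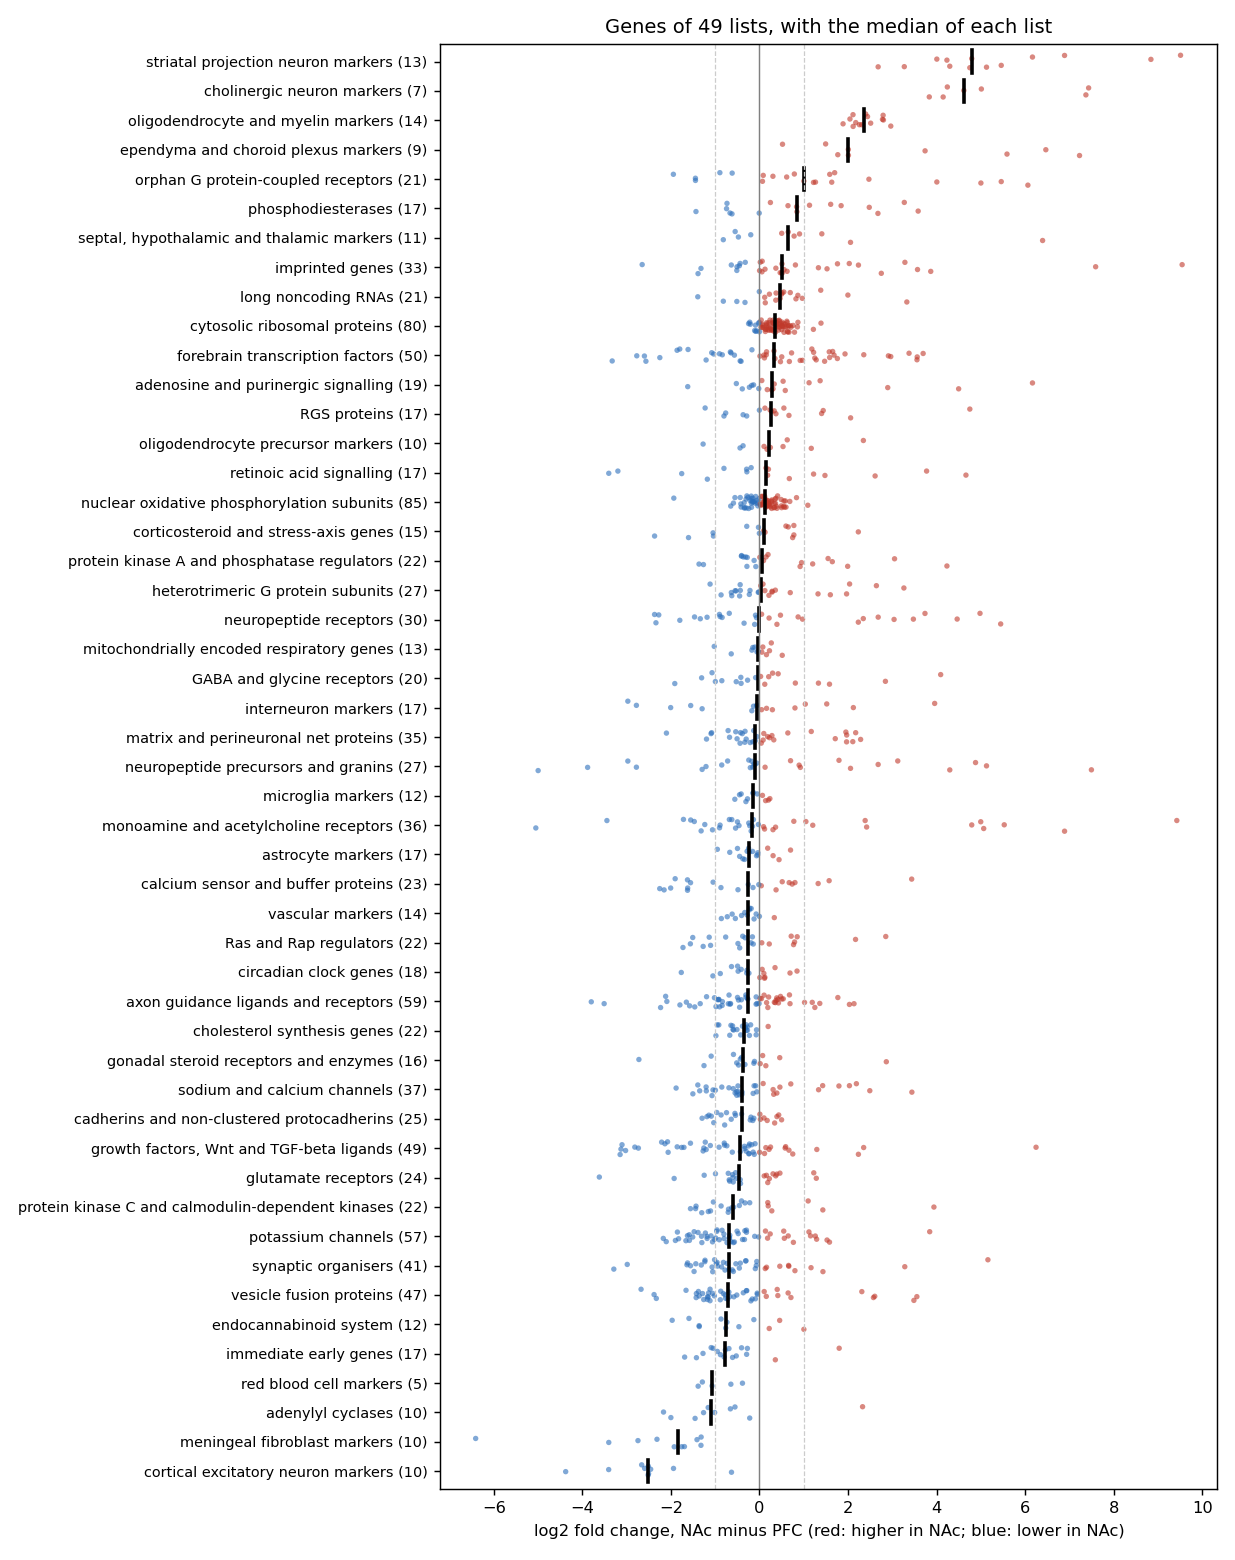
Log2 fold change, NAc minus PFC, of the tested genes in 49 lists, 1 row per list with the number of genes tested. Points are genes, red above 0 (higher in NAc) and blue below 0 (lower in NAc), black bars are list medians, and dashed lines mark 2-fold. Rows run from the striatal (4.79) and cholinergic (4.62) marker lists to the cortical excitatory marker list (-2.51).

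The NAc libraries were not alike in their content of cortical excitatory markers. The mean log2 CPM of the 10 markers ran from 1.32 in NAc replicate 27 and 2.31 in replicate 19 to 4.93 in replicate 48, with a median of 4.30, whereas in PFC it stayed between 6.60 and 6.76. Replicate 19 is the only animal whose labels carry the tag NT, in both regions, and its meaning is not given in the labels. The striatal score ran from 7.13 to 7.96 in NAc and from 1.88 to 2.83 in PFC, with PFC replicate 35 the highest of its region. Across the 24 NAc libraries the cortical score and the striatal score moved in opposite directions, with Pearson's r = -0.75 (permutation p = 4e-05, adjusted over 6 relations 0.00012) and Spearman's rho = -0.91 (permutation p = 1e-05, the smallest that 100000 permutations can give, adjusted 3e-05). Without replicates 27 and 19, the farthest from the median, r was -0.84, and within cohorts it was -0.74 (cohort 1, n = 11) and -0.87 (cohort 2, n = 10), with 3 animals in cohort 3, too few for a value. The permutations here and below shuffled all 24 libraries without keeping genotypes apart. Every XY-Sry library of NAc had a cortical score of at least 4.31, whereas replicates 27 and 19 were XXSry and XY-. The part of genotype was not tested. Both scores are relative to the total of the same library, so they are not independent of each other.

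The same score moved with lists described above. Over the same 24 libraries it correlated with the mean level of the vesicle fusion genes (r = 0.87, permutation p = 1e-05, adjusted 6e-05; rho = 0.86, permutation p = 1e-05, adjusted 3e-05; without the 2 farthest 0.82; cohorts 0.87 and 0.71) and of the potassium channel genes (r = 0.70, permutation p = 0.00024, adjusted 0.00048; rho = 0.58, permutation p = 0.0034, adjusted 0.0067; without the 2 farthest 0.57; cohorts 0.78 and 0.17). The correlation did not pass the test with myelin (r = -0.02, permutation p = 0.93, adjusted 0.93; rho = -0.19, permutation p = 0.38, adjusted 0.38; without the 2 farthest -0.06; cohorts -0.08 and -0.64), astrocyte (r = -0.20, permutation p = 0.35, adjusted 0.42; rho = -0.27, permutation p = 0.20, adjusted 0.30; without the 2 farthest -0.18; cohorts -0.12 and -0.15) or ependyma markers (r = -0.23, permutation p = 0.27, adjusted 0.41; rho = -0.23, permutation p = 0.28, adjusted 0.34; without the 2 farthest -0.07; cohorts -0.30 and 0.27). Of 4 genes lower in NAc, taken as examples, NAc replicates 27 and 48 had 0.669 and 9.63 CPM of Bdnf, against a PFC median of 37.6 CPM, 1.57 and 10.3 CPM of Rtn4r (PFC median 85.9), and 24.1 and 67.8 CPM of Stx1a (PFC median 299). Crhr1 had 6.06 and 6.14 CPM in the same libraries (PFC median 28.6). The part of cortical RNA in the NAc level of each gene was not tested. Among genes with a mean of at least 3 log2 CPM, the log2 difference between regions varied most over animals for Adcyap1, Gm11549, Xist, Gm29216 and Neurod6. Xist had means of 1732 and 1890 CPM in NAc and 1059 and 1068 CPM in PFC of XX and XXSry mice. In XY- and XY-Sry mice the means were 0.986 and 0.464 CPM in NAc and 0.172 and 0.0411 CPM in PFC. The Xist differences of those mice thus compare low counts. Neurod6, a marker of cortical excitatory neurons, had 1.38, 35.4 and 63.5 CPM in NAc and 121, 175 and 199.9 CPM in PFC. Gm29216 was not called, with 6.10, 9.48 and 189 CPM in NAc and 7.61, 9.26 and 12.5 CPM in PFC and a log2 fold change of 0.34 (adjusted p = 0.24), and 4 NAc libraries stood apart, replicate 6 at 189 CPM, 27 at 79.5, 37 at 64.9 and 46 at 32.3. Leaving out both replicates 19 and 27, an alternative chosen after the data were seen, 15361 genes were called and 3294 at least 2-fold apart.

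**Figure D4:**
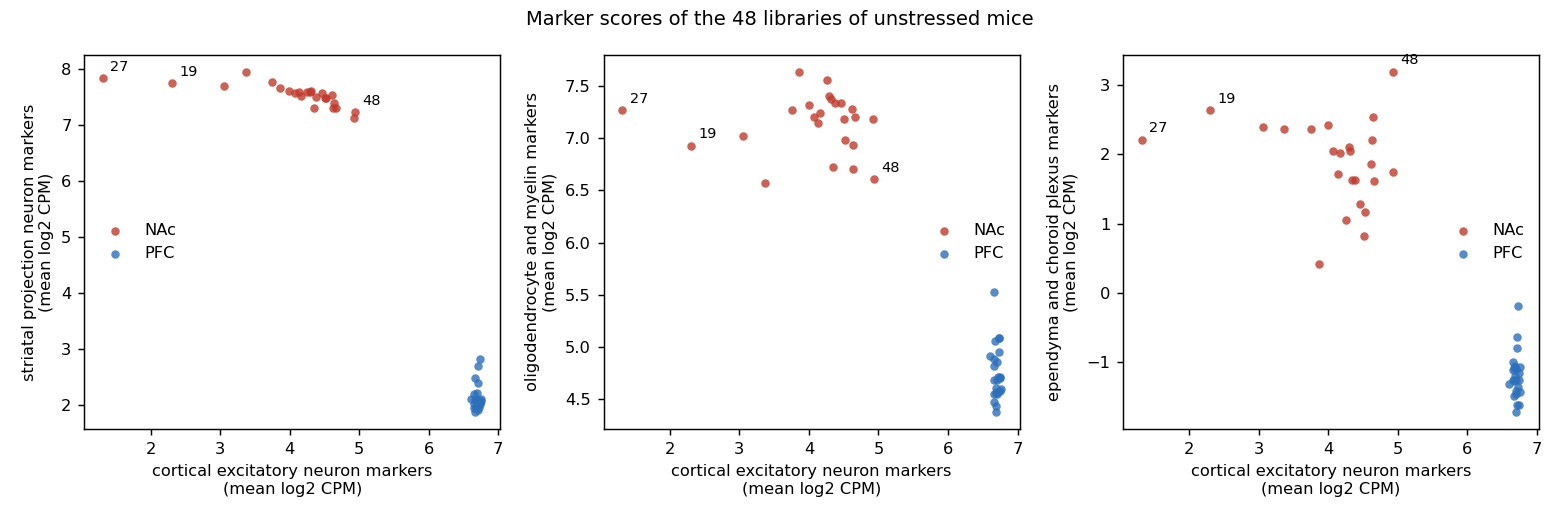
Mean log2 CPM of the cortical excitatory markers (x axis) against that of striatal projection neuron, myelin and ependyma markers (y axes) in the 24 NAc (red) and 24 PFC (blue) libraries, with NAc replicates 27, 19 and 48 named. The NAc libraries spread from 1.32 to 4.93 on the x axis, and the PFC libraries sit between 6.60 and 6.76.

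Few genes passed a test of whether the region difference depends on genotype. The labels place the 24 animals in 3 cohorts of 11, 10 and 3 animals, and all 3 animals of cohort 3 were XY- (2) or XY-Sry (1), so cohort and chromosome complement are partly confounded; the tests carry terms for region by cohort. The interaction of region with chromosome complement (XX and XXSry against XY- and XY-Sry) was called for 1 of 18635 genes (0.00537%), the Y-linked Eif2s3y. That with gonad type (testes against ovaries) was called for 0 (0%). An unadjusted p below 0.05 was found for 772 and 743 genes. Both counts are under the share of 0.05 that would pass if no gene had an interaction. Eif2s3y had 71.7 ± 13 CPM in NAc and 54.7 ± 10.3 CPM in PFC of XY- mice (SD, n = 7), and 74.4 ± 11.6 CPM in NAc and 51.1 ± 8.33 CPM in PFC of XY-Sry mice (SD, n = 6). XX and XXSry mice, which lack a Y chromosome, had 22 and 25 counts in NAc and 2 and 2 in PFC, summed over 5 and 6 animals, so the fitted difference rests on counts near 0. DESeq2 called 4 genes for complement, adding Igtp, Ifit2 and Herc6, which edgeR did not call, and 2 for gonad type, ENSMUSG00000095367 (a log2 difference of 1.98, testes minus ovaries, edgeR adjusted p = 0.63) and Zfp395 (-0.28, edgeR adjusted p = 0.63). On simulated data for the complement test, 53.5% of interactions of 0.5 log2 units and 95% of those of 1 were found, so smaller interactions would often be missed. The simulation gave every gene the same dispersion, with no cohort effect and no spread particular to NAc. Recovery among the measured genes may therefore be lower.

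In the 24 stressed mice, which share no animal with the controls, 15436 of 18572 genes (83.1%) were called, and 1832 were at least 2-fold higher and 1681 at least 2-fold lower in NAc. The 1596 genes at least 2-fold higher in both were 87.1% of the stressed list and 93.5% of the unstressed list, and the 1536 at least 2-fold lower in both were 91.4% of the stressed list and 92.3% of the unstressed list. All 3300 genes at least 2-fold apart in unstressed mice and tested in stressed mice had the same direction there. Across 18460 genes the log2 fold changes of the groups correlated with r = 0.99, which is across genes and is given as a description. The interaction of region with stress was called for 0 of 18704 genes (0%) by edgeR and for 0 by DESeq2. An unadjusted p below 0.05 was found for 952 genes, near the share of 0.05 that would pass if no gene had an interaction. The smallest p-values belonged to Rangrf, with a log2 difference of -0.30, and 4930470G03Rik, with 1.17 (stressed minus unstressed, edgeR adjusted p = 0.75 for both), each with an opposite-strand overlap. Adcy5 differed by 2.26 in stressed and 2.33 in unstressed mice, Rarb by 3.67 and 3.77, Bdnf by -3.34 and -3.13, and Nr4a2 by 1.65 and 1.80.

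**Figure D5:**
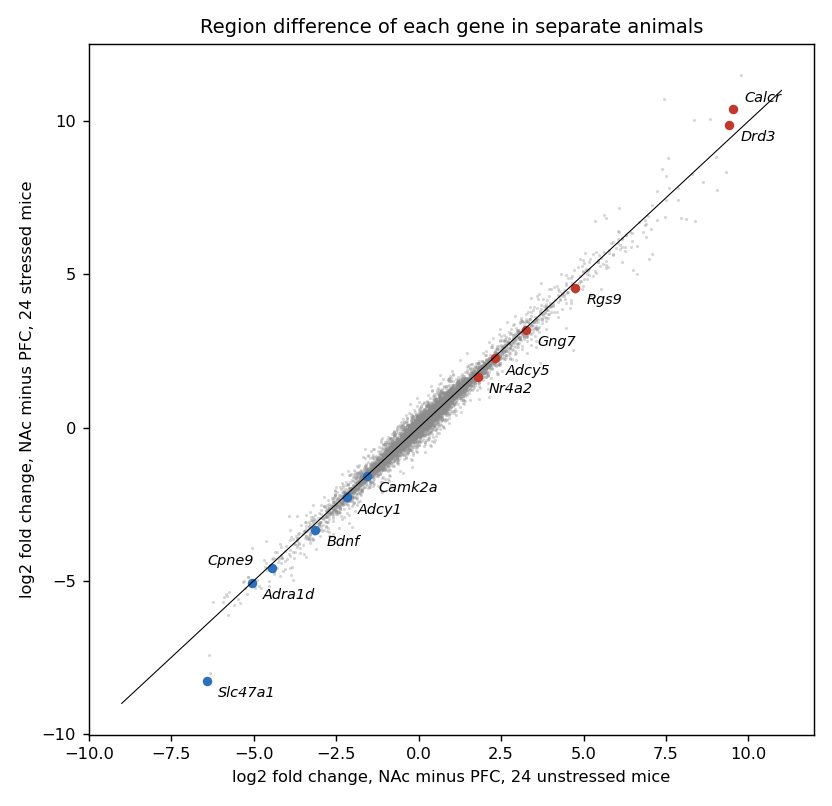
Log2 fold change, NAc minus PFC, of each of 18460 genes in the 24 unstressed mice (x axis) and in the 24 stressed mice (y axis), with 12 genes named and the line of equal values. The genes lie along the line in both directions, with r = 0.99 across genes.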

How the data were processed

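Gene counts of 96 polyadenylated RNA libraries were deposited by the authors as 1 table per region, and the 48 libraries of unstressed mice were used for the main comparison. Per the labels' protocols, RNA came from tissue punches, 100 ng went into each library with 15 amplification cycles, and reads were paired, 50 bp long, with 45 M reads stated per library. The submitters' processing notes name FastQC 0.11.9, Trimmomatic 0.38, HISAT2 2.2.0, edgeR, DESeq2 and GRCm38/mm10. The deposited values are raw counts, whole numbers without normalization. Which tool counted reads, whether it used strand, and with which annotation, is not stated.

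Counts were fitted with edgeR 4.0.16 (TMM, robust quasi-likelihood, genes filtered by filterByExpr) in R 4.3.3, with animal as a block, and tested on simulated data, where 99 of 99 known differences of 0.5 log2 units between regions were found among 18708 genes, with 13 false calls. The simulated counts had the same dispersion for every gene, no cohort effect and no spread particular to NAc. SE is the log2 fold change over the square root of F. List scores are mean log2 CPM with a prior count of 2. RPKM uses exon lengths and strand overlaps from GENCODE M21. Promoters are from RefSeq.

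The pairing comes from the labels, which give both libraries of an animal the same number and animal identifier. The deviations of an animal's libraries from the region means had a median correlation of 0.0805 over 10492 genes, from -0.25 to 0.60, 10 of 24 were above 0.1, and 2 animals' libraries correlated best with each other. No pair of libraries of a region agreed within sampling noise: the lowest chi-square per degree of freedom over 276 pairs was 13.3 in NAc and 7.74 in PFC. Intervals and floors cover counting error only, and intervals treat each count as independent.

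The genes, 49 lists and tests were chosen with earlier results of these data known, and lists share some genes. Named genes are the 15 highest and 15 lowest called genes with a mean of at least 3 log2 CPM (cortical excitatory and striatal projection neuron markers and predicted genes aside), up to 6 most and 3 least changed members of a list, all members of families of up to 12, the leading interaction genes, and the 5 with the largest SD over animals. Named outside that rule, after their values were seen, were Camkk2, Cckbr, Chrm3, Dcc, Dlx5, Drd1, Dusp1, Fkbp5, Fosl2, Gpr22, Gpr26, Hrh1, Htr2c, Htr4, Junb, Meis1, Nptx2, Otx1, Pde1a, Rara, Rian, Sema3f, Sema7a, Snap25, Sstr3, Tshz3, Vsnl1, Wnt2, Zdbf2, Igtp, Ifit2, Herc6 and the genes without a count in PFC. Alternatives were other normalizations, DESeq2 1.42.0, filters, single cohorts and genotypes, no block, and leaving out animals.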

Additional observations from a re-analysis of the deposited data

Results flagged for a closer look

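The Y-linked gene Eif2s3y, a translation initiation factor, differed between chromosome complements in its NAc minus PFC difference. The log2 difference was 2.84 (SE 0.422, XX and XXSry minus XY- and XY-Sry, edgeR adjusted p = 0.0177), and DESeq2 gave an adjusted p of 0.0343. In the mice without a Y chromosome the gene had 22 counts in NAc and 2 in PFC (XX, 5 animals) and 25 in NAc and 2 in PFC (XXSry, 6 animals), against 38638 counts in NAc and 30474 in PFC of XY- mice. The source of the counts in mice without a Y chromosome was not tested.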

How the results depend on the processing

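The number of called genes, 15509, stayed within 1.5 times under other normalizations, DESeq2 (15582), no filter on low counts (16249 of 19918), the filter of 1 CPM in 24 libraries (12736 of 14604) and within each genotype, and was 9279 within cohort 3, which has 3 animals. The count at least 2-fold apart, 3372, was 1978 with the filter of 1 CPM in 24 libraries, which tests fewer genes, and 3966 without a filter. Plain library totals left 15704 genes called but moved the share of higher calls to 61.7%, against 50.7%. Leaving out 1 animal at a time gave 15351 to 15475 called genes and 3311 to 3382 at least 2-fold apart. Of 49 gene list medians, 19 were above 0, and 18 to 25 under the alternatives. Lists that changed sign under at least 1 of them were interneuron markers, GABA and glycine receptors, matrix proteins, neuropeptide precursors, neuropeptide receptors, mitochondrially encoded genes, G protein subunits and protein kinase A regulators.

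Without the replicate block, 15494 genes were called and 3333 were at least 2-fold apart. The complement interaction was called for 1 gene in the reported fit, for 0 genes without the replicate block, for 2 without cohort by region terms and for 4 with DESeq2, and the gonad interaction for 2 genes with DESeq2, and the cause was not tested. Of the named genes, the region differences of Ifit2 (log2 fold change -0.18) and Igtp (-0.28) reversed within XY- mice, to 0.041 and 0.14, and the cause was not tested. At this depth the simulated test for complement found 53.5% of interactions of 0.5 log2 units among 18709 genes, all simulated with the same dispersion.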
